A study of Mus musculus with 12 samples.

Results

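The mouse T cell receptor alpha (TCRα) locus was followed through its variable (V) segments, its joining (J) segments and its constant region gene, Trac, in thymocytes of mice lacking Id proteins and of wild-type (WT) mice. Members were taken by symbol (every Trav and Traj segment of the deposited expression table, and Trac) and came to 77 of 11815 features, with 73 V segments, 3 J segments (Traj49, Traj39 and Traj2) and Trac. All 77 were tested, and every feature of the table reached 1 FPKM (fragments mapped to a feature, scaled to its length and to the fragments of the library) in at least 2 of 11 libraries. Traj18, which supplies the J part of the invariant receptor of iNKT cells, is not analysed here, and that receptor was followed through its V segment.

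RNA sequencing compared 3 kinds of sorted thymocytes in 6 groups. Id3KO γδ cells came from mice lacking Id3 and were set against WT γδ cells, both sorted as TCRγδ+ CD3+ with 2 libraries each. L-DKO iNKT cells (2 libraries) were set against WT iNKT cells (1 library), both sorted as TCRβ+ cells that bind a CD1d tetramer. L-DKO DP cells were set against WT DP cells, CD4+ CD8+ double-positive thymocytes, with 2 libraries each. L-DKO mice carried floxed Id2 and Id3 alleles (Id2 f/f Id3 f/f) and a Cre transgene driven by the Lck promoter, a design meant to delete both genes in T lineage cells, whereas Id3KO mice lacked Id3 in every cell. The labels give the L-DKO DP gate as CD1d tetramer-negative and the WT DP gate as TCRγδ-negative, while the study's methods give TCRγδ-negative for both. Every library pooled cells of 2 to 3 mice aged 4 to 5 weeks on a C57BL/6 or a mixed C57BL/6 and 129 background. The sample titles call the WT groups B6 (C57BL/6), but the sources used here do not say which background each mutant group had. Strain and genotype therefore cannot be told apart, and V segments differ between mouse strains. Whether both libraries of a group came from different mice is not given either, so p-values measure the spread between libraries. Libraries of a group are called a and b by their column alone.

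A TCRα chain is made in DP cells, where the RAG recombinase joins a V segment to a J segment and the transcript is then spliced to Trac. Joining begins with V and J segments that lie close to each other and can be repeated with V segments farther upstream and J segments farther downstream. iNKT cells carry an invariant TCRα chain, Trav11 (also called Vα14) joined to Traj18, and bind lipids shown by CD1d. The δ chain locus lies between the V and J segments of TCRα, and V segments with dv in their symbol serve both chains. Mouse γδ T cells that resemble NKT cells are known for a receptor of Vγ1 with a Vδ6 chain, whose segments carry Trav15 symbols.

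RefSeq (assembly GRCm38.p6) placed all 77 members on chromosome 14, with the 73 V segments between positions 52580762 and 53876752. It lists 130 V and 60 J segments, so most V but few J segments were measured. Trav11d lies at chr14:52824357-52824913 and Trav11 at chr14:53519303-53519859, both upstream of Traj49 (chr14:54168686-54168744), Traj39 (chr14:54179962-54180024), Traj2 (chr14:54217836-54217901) and Trac (chr14:54220521-54224198). Large duplications have left the V cluster with copies that carry d (27 segments), n (19 segments) or no letter (27 segments), and 64 of the 73 V segments belong to 24 families with 2 or more measured copies. Only 30 V segments had a transcript sequence in the reference, from GENCODE annotation of NCBIM37 and matched by symbol. Of their 50-base windows, the length of a read, a median of 17.9% occurred in another of these segments, and in 6 segments more than 50% did. Levels of single copies are therefore uncertain, and families were also summed.

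The last coding bases of Trav11d are shown because the iNKT result rests on Trav11 and Trav11d. The reference held no transcript of Trav11. The capitals mark the last in-frame cysteine codon, where the third hypervariable loop of the receptor begins.
Trav11d: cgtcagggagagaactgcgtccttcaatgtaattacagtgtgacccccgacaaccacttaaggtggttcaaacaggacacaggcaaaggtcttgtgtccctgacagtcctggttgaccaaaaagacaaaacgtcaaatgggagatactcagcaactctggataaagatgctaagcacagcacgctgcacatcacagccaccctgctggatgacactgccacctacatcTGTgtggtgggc
The Trav15 segments are shown because the γδ result turns on 2 families of them, which end as follows, with capitals where a base differs from Trav15d-1-dv6d-1.
Trav15d-1-dv6d-1: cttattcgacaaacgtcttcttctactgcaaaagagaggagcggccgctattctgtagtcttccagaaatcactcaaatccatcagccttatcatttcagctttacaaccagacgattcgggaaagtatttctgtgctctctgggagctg
Trav15d-2-dv6d-2: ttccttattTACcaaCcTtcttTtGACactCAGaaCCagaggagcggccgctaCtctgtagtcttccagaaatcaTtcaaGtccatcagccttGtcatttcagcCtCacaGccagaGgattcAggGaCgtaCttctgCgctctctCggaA
Trav15-2-dv6-2: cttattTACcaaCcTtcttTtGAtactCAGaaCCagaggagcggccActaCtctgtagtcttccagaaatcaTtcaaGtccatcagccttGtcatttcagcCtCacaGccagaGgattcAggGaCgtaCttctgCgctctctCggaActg
Trav15d-1-dv6d-1 and Trav15d-2-dv6d-2 differed at 57 of 348 aligned coding bases (83.62% identity), whereas Trav15-2-dv6-2 and Trav15d-2-dv6d-2 shared 98.26% and Trav15n-2 was identical to Trav15d-2-dv6d-2.

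Sequencing depth is unknown, and FPKM summed to between 498489 and 1020310 per library. Id2 was at 0 and 0.199 FPKM in the L-DKO iNKT-labelled libraries, against 553 in WT iNKT, but Id3 was still at 30.5 and 22.8 FPKM, against 42.4. Id3 stood at 6.16 and 3.09 FPKM in L-DKO DP against 53.8 and 36.9 in WT DP, and at 3.95 and 3.07 in Id3KO γδ against 157 and 96.7 in WT γδ. Zbtb16, a factor of innate-like T cells, was at 53.4 and 68.6 FPKM in the L-DKO iNKT-labelled libraries, 88.7 in WT iNKT and at most 1.12 in DP libraries. It was at 171 and 135 FPKM in Id3KO γδ and 24.0 and 9.69 in WT γδ. Other iNKT markers differed between the iNKT groups. Cd44 was at 2.74 and 18.0 FPKM in the L-DKO iNKT-labelled libraries, against 99.3 in WT iNKT, and Il2rb at 55.7 and 18.7, against 312. Slamf6 was at 125 and 163 FPKM, against 19.9 in WT iNKT and 32.5 to 40.5 in DP libraries. Markers of other cells differed too. Cd74, of antigen-presenting cells, was at 1.95 and 10.2 FPKM in the L-DKO iNKT-labelled libraries, against 49.5 in WT iNKT. Lyz2, of myeloid cells, was at 0.373 and 0.690, against 7.09. Itgam, also myeloid, went the other way, at 11.7 and 10.9, against 1.28. So did Epcam, of epithelial cells, at 14.1 and 9.88, against 1.01. The part of other cells in the V levels was not tested. The γ chain constant genes Tcrg-C1, Tcrg-C2 and Tcrg-C4 were abundant in γδ libraries and also, at 149.8, 217 and 125 FPKM, in the WT iNKT library. Sox13, another marker of γδ cells, did not follow them. It was at 284 and 202 FPKM in WT γδ, but at 23.7 and 4.66 in Id3KO γδ. In WT iNKT it was at 6.05 FPKM, beside 5.64 and 9.39 in the L-DKO iNKT-labelled libraries.

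Trac was high in iNKT and DP cells and low in γδ cells. It reached 432 and 547 FPKM in the L-DKO iNKT-labelled libraries and 784 in WT iNKT, 469 and 397 in L-DKO DP and 317 and 329 in WT DP, and 43.8 and 53.04 in Id3KO γδ and 50.96 and 73.8 in WT γδ. As group means these were 489.8 ± 81.1, 433 ± 50.9, 323 ± 8.54, 48.4 ± 6.56 and 62.4 ± 16.2 FPKM for L-DKO iNKT, L-DKO DP, WT DP, Id3KO γδ and WT γδ (SD, n = 2 each). The libraries of L-DKO iNKT overlapped with those of L-DKO DP, and those of Id3KO γδ with those of WT γδ. On the log2(FPKM + 1) scale, which understates changes of low values, limma's moderated test across all 11815 features gave a difference of -2.38 ± 0.23 (SE, adjusted p = 0.000693) for WT γδ over WT DP and 1.28 ± 0.28 (SE, adjusted p = 0.0143) for WT iNKT over WT DP. The second call was lost when every library was scaled to 1 total (difference 0.33, adjusted p = 0.4) or without WT DP library a (adjusted p = 0.053). Between L-DKO or Id3KO and WT cells, Trac did not pass the adjusted p of 0.05 that served as threshold throughout, with log2 differences of -0.69 ± 0.28 (SE, adjusted p = 0.242) in iNKT cells, 0.42 ± 0.23 (SE, adjusted p = 0.553) in DP cells and -0.34 ± 0.23 (SE, adjusted p = 0.351) in γδ cells. In a bulk sample, fewer cells of a type and less RNA per cell cannot be told apart.

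V segment RNA was present in every population but spread over the segments in different ways. The 73 V segments summed to 1216 and 1159 FPKM in Id3KO γδ and 644 and 998 in WT γδ, to 984 and 910.3 in the L-DKO iNKT-labelled libraries and 1511 in WT iNKT, and to 1519.7 and 1579 in L-DKO DP and 1698 and 1914 in WT DP. Relative to Trac the sum was 27.8 and 21.9 in Id3KO γδ and 12.6 and 13.5 in WT γδ, but 2.27 and 1.66 in the L-DKO iNKT-labelled libraries and 1.93 in WT iNKT, with 3.24 and 3.98 in L-DKO DP and 5.36 and 5.82 in WT DP. The ratio was thus highest in Id3KO γδ and lowest in iNKT cells. Evenness was described by the inverse Simpson index, the number of equally used V segments that would give the same concentration. It was 2.95 and 2.44 in Id3KO γδ and 18.995 and 21.3 in WT γδ, 9.82 and 6.31 in the L-DKO iNKT-labelled libraries and 3.78 in WT iNKT, and 49.8 and 49.9 in L-DKO DP and 41.9 and 41.7 in WT DP. DP cells used V segments broadly, and γδ cells of Id3KO mice used the fewest.

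**Figure D1:**
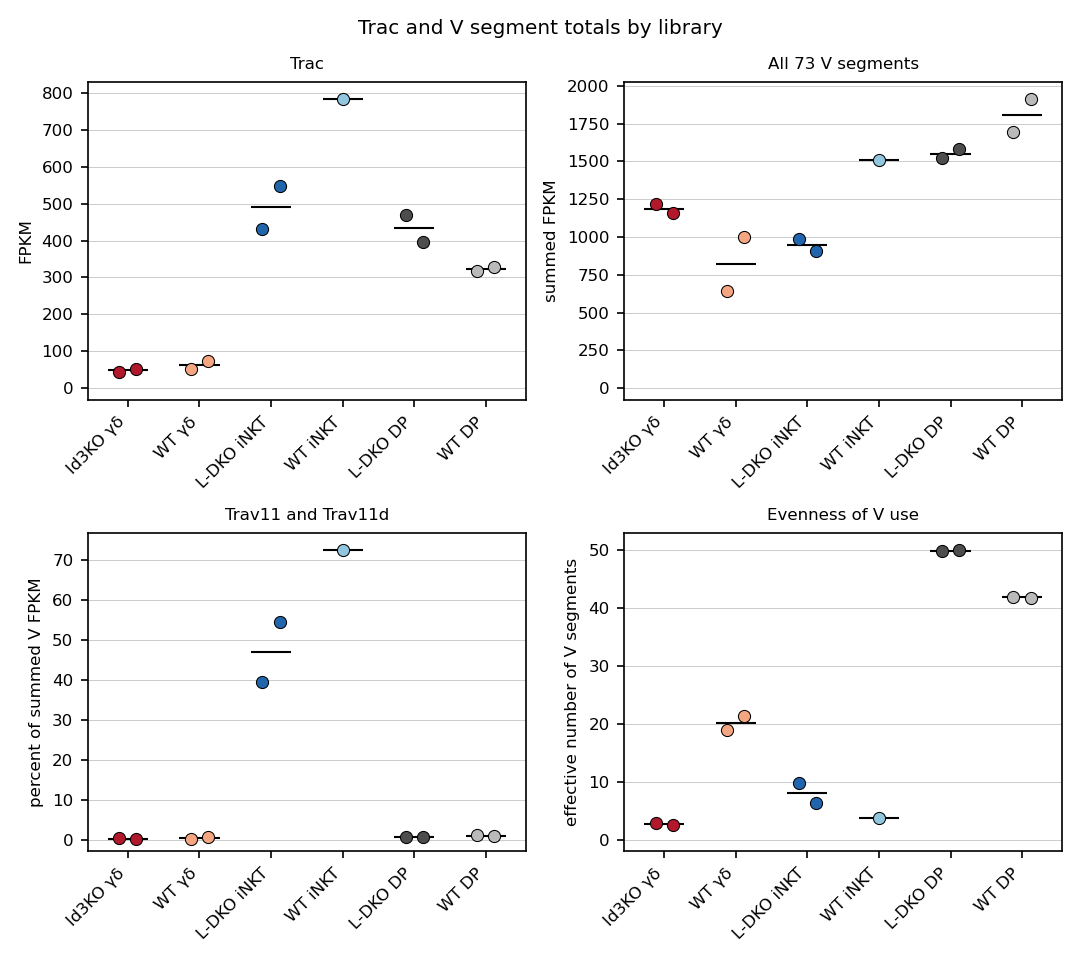
Trac (FPKM), the summed FPKM of the 73 V segments, the percent of that sum held by Trav11 and Trav11d, and the effective number of V segments (inverse Simpson index) in each library. Points are libraries, bars are group means (WT iNKT has 1 library), and L-DKO iNKT stands for the libraries labelled so; Trac is below 74 FPKM in all 4 γδ libraries, and the Trav11 pair exceeds 39% of V FPKM in the 3 iNKT libraries alone.

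The segment with the highest FPKM differed between populations. Trav15d-1-dv6d-1 led both Id3KO γδ libraries and Trav13-4-dv7 both WT γδ libraries, Trav11d led L-DKO iNKT library a and WT iNKT, and Trav11 led L-DKO iNKT library b. Trav6n-7 and Trav6-7-dv9 led the 2 L-DKO DP libraries and Trav14-1 both WT DP libraries. A level of at least 10 FPKM was reached by 5 and 4 V segments in Id3KO γδ against 15 and 24 in WT γδ, by 19 and 14 in the L-DKO iNKT-labelled libraries against 10 in WT iNKT, and by 62 and 60 in L-DKO DP against 56 and 64 in WT DP. Listed at 0, which can be a failed estimate of FPKM, were 28 and 36 V segments in Id3KO γδ, 17 in L-DKO iNKT library a and 1 in library b, and 0 in every other library.

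**Figure D2:**
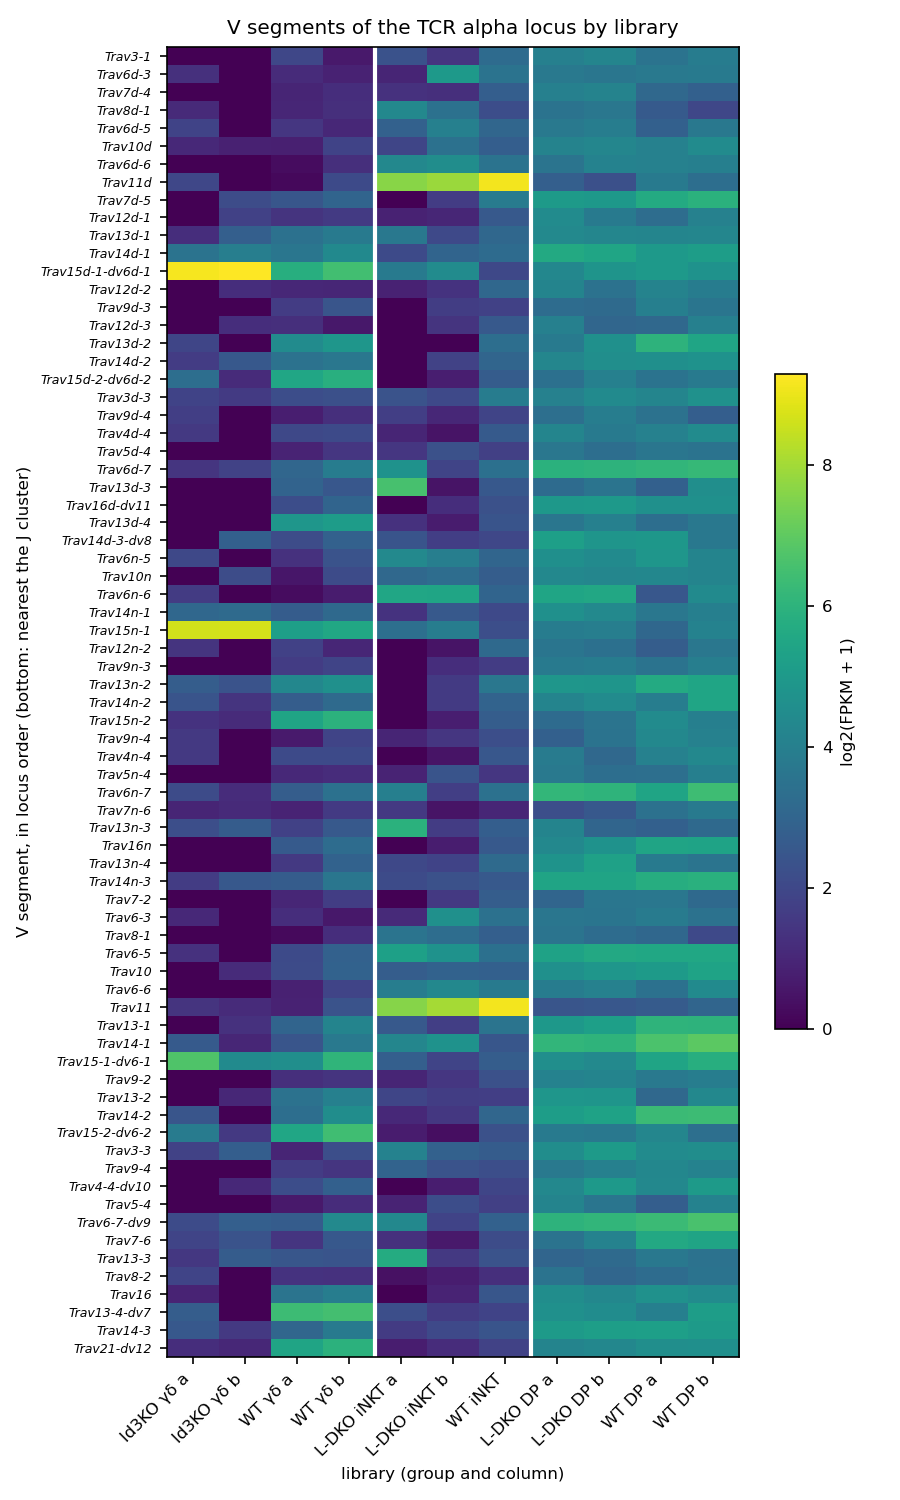
Level of each of the 73 V segments (rows, in locus order with the J-proximal end at the bottom) in each of the 11 libraries (columns), coloured by log2(FPKM + 1). The 2 Trav11 copies stand out in the 3 iNKT libraries, Trav15d-1-dv6d-1 and Trav15n-1 in the 2 Id3KO γδ libraries, and the DP libraries show the broadest use.

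The comparison of WT iNKT with WT DP cells shows the receptor that defines iNKT cells and that their tetramer gate selects. Trav11 was at 547 FPKM in WT iNKT, against 5.41 and 7.18 in WT DP, a log2 difference of 6.24 ± 0.52 (SE, adjusted p = 0.000394). Trav11d was at 549 FPKM in WT iNKT, against 13.2 and 9.24 in WT DP, a log2 difference of 5.51 ± 0.89 (SE, adjusted p = 0.00381), which with a pseudocount of 0.1 did not pass (adjusted p = 0.0876). The pair held 72.5% of V FPKM in WT iNKT and 1.09 and 0.858% in WT DP. Its near-identical levels in WT iNKT do not show that both genes were used, since reads may have been split between the copies, and the Trav11 sequence was not compared here. These 2 were the V segments that rose, where 16.3% of all features did, and 31 of 73 fell, where 8.73% of all features did. The median log2 difference was -1.67 over the V segments and 0.11 over all features.

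Among the falls in WT iNKT were V segments common in DP cells. Trav14-1 was at 4.55 FPKM in WT iNKT, against 99.5 and 123 in WT DP (-4.33 ± 0.69 SE, adjusted p = 0.00371), and Trav7-6 at 3.45, against 48.04 and 41.3 (-3.36 ± 0.50 SE, adjusted p = 0.00275). Trav14n-3 was at 5.01 FPKM in WT iNKT, against 53.96 and 58.2 in WT DP (-3.25 ± 0.44 SE, adjusted p = 0.00192). Trav14-2 and Trav6-7-dv9 fell too, to 7.41 and 6.30 FPKM in WT iNKT, but both calls were lost without either WT DP library (adjusted p of at least 0.0766), and that of Trav6-7-dv9 also without either L-DKO DP library (0.0515). Excluding the Trav11 pair, V FPKM in WT iNKT came to 23.2% of the WT DP mean, while of the 6 DP markers Cd4 was at 16.6%, Ptcra at 12.1%, Cd8b1 at 5.05%, Cd8a at 4.98%, Rag1 at 4.18% and Rag2 at 3.47% of theirs. How much of it came from other cells in the sort was not tested. The test gives the single WT iNKT library the spread estimated from the other groups. The 33 calls became 18 without WT DP library b, 15 with a pseudocount of 0.1 and 57 when every library was scaled to 1 total.

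The Trav11 pair also led the V segments in iNKT cells of L-DKO mice. Against L-DKO DP cells, Trav11 was at 192 and 261 FPKM in the L-DKO iNKT-labelled libraries, with 4.40 and 4.74 in L-DKO DP (5.34 ± 0.43 SE, adjusted p = 0.000179). Trav11d was at 198 and 236 FPKM in the L-DKO iNKT-labelled libraries, against 6.03 and 3.78 in L-DKO DP (5.23 ± 0.73 SE, adjusted p = 0.00199, adjusted p = 0.0534 with a pseudocount of 0.1). The groups did not overlap for either copy. Of the V segments 2 rose, against 13.4% of all features, and 50 fell, against 10.8% of all features, with a median log2 difference of -2.66 over the V segments and -0.01 over all features. Trav16d-dv11 was at 0 and 1.29 FPKM in the L-DKO iNKT-labelled libraries, against 29.5 and 30.9 in L-DKO DP (-4.37 ± 0.39 SE, adjusted p = 0.000295), and Trav16n at 0 and 0.653, against 19.004 and 25.8 (-4.17 ± 0.30 SE, adjusted p = 0.000117). Trav4-4-dv10 and Trav7d-5 fell by 4.29 and 4.19 on the log2 scale, and Trav13d-2 was listed at 0 in both L-DKO iNKT-labelled libraries, against 13.03 and 23.9 FPKM in L-DKO DP (adjusted p = 0.00182). Of the 10 V segments with dv in their symbol, 8 fell.

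The direct comparison of iNKT cells set the L-DKO iNKT-labelled libraries, in which Id3 RNA was still present, against WT iNKT. How complete the deletion was in them was not tested. The Trav11 pair held 39.6 and 54.6% of V FPKM in the L-DKO iNKT-labelled libraries, against 72.5% in WT iNKT, and per Trac it came to 0.902 and 0.908, against 1.40. Both libraries lay below the WT one, but neither copy passed the test, with a log2 difference of -1.28 ± 0.52 (SE, adjusted p = 0.235) for Trav11 and -1.34 ± 0.89 (SE, adjusted p = 0.502) for Trav11d. Trav11 passed without either WT γδ library, with the same difference and an adjusted p of 0.0485. Of the V segments 1 rose, against 2.18% of all features, and 10 fell, against 3.88% of all features. The median log2 difference was -0.59 over the V segments and -0.07 over all features. These counts are fragile, because scaling to 1 total, which put the median of all features at 0.80, turned them to 10 that rose and 7 that fell. A pseudocount of 0.1 left 3 of the 11 calls, and a limma fit on the 2 groups alone left 0 (at an unadjusted p under 0.05, 8 V segments were higher and 25 lower). Without L-DKO iNKT library a there were 7, without L-DKO iNKT library b 19, and without either L-DKO DP library 6.

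The V segment that rose was Trav15d-1-dv6d-1, at 13.1 and 21.5 FPKM in the L-DKO iNKT-labelled libraries, against 3.02 in WT iNKT (2.14 ± 0.38 SE, adjusted p = 0.0182). With the copies of its family summed, the difference was 1.36 (adjusted p = 0.0596). Trav3d-3 was at 4.18 and 3.10 FPKM in the L-DKO iNKT-labelled libraries, against 13.8 in WT iNKT (-1.68 ± 0.29 SE, adjusted p = 0.0163), but with its family summed the difference was -0.44 (adjusted p = 0.727). Trav13n-2 was at 0 and 1.95 FPKM, against 11.8 in WT iNKT (-2.90 ± 0.54 SE, adjusted p = 0.0217). The other 8 that fell were under 10 FPKM in both groups, and 6 of the 10 were listed at 0 in L-DKO iNKT library a. With families in place of copies, 5 of 33 passed, all of them lower.

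Each L-DKO iNKT-labelled library carried V segments at levels many times those of the other. The 3 copies of Trav13-3 summed to 206 FPKM in library a and 4.42 in library b, against 14.8 in WT iNKT. Trav6-3 and Trav6d-3, which share 99.70% of their coding bases, summed to 2.05 FPKM in library a and 55.5 in library b, against 20.6 in WT iNKT. The Trav6-7 family stood at 59.7 FPKM in library a and 7.67 in library b, with 25.9 in WT iNKT. Other segments were high in both, such as Trav6n-6 at 43.8 and 42.7 FPKM against 6.90 in WT iNKT (2.49 ± 0.80 SE, adjusted p = 0.136), and Trav6-5 at 37.7 and 25.6 FPKM against 9.72 (1.58 ± 0.55 SE, adjusted p = 0.159), neither past the threshold. These segments were chosen after their values were seen. Across the 73 V segments the log2 values of libraries a and b correlated with a Pearson r of 0.652 (a description over segments of the same libraries), against 0.760 in the Id3KO γδ pair and 0.822 to 0.929 in the L-DKO DP, WT DP and WT γδ pairs. Apart from the Trav11 pair, V FPKM was 33.2 and 23.1% of the WT DP mean in the L-DKO iNKT-labelled libraries, against 23.2% in WT iNKT, and Rag1 was at 0.350 and 0.325%, against 4.18%. Of the other DP markers, Cd4 was at 16.9 and 39.03% of the WT DP mean in libraries a and b, Ptcra at 10.1 and 10.8%, Cd8a at 10.4 and 0.469%, Cd8b1 at 9.39 and 0.645% and Rag2 at 0.391 and 0.317%. The part of DP cells in the V levels was not tested.

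**Figure D3:**
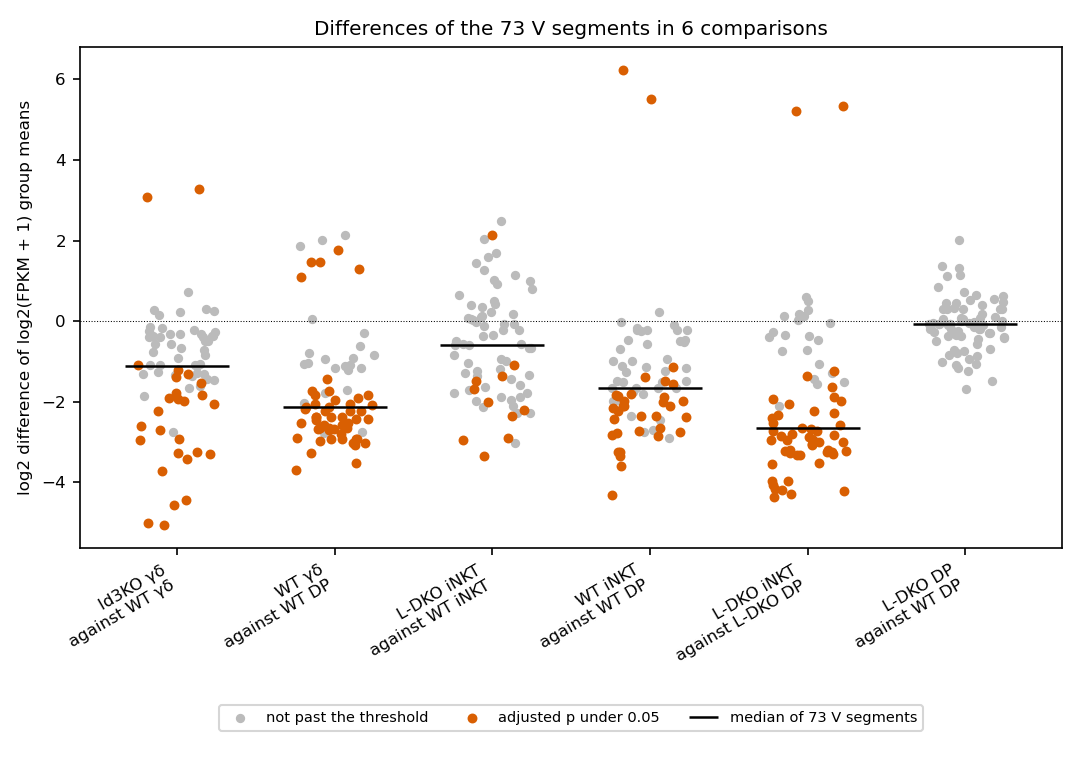
Log2 difference between groups of each of the 73 V segments (points) in 6 comparisons, with the first named group over the second, orange where limma's adjusted p was under 0.05 and a bar at the median; points at a group listed at 0 depend on the pseudocount. The medians lie at -1.12, -2.13, -0.59, -1.67, -2.66 and -0.08 from left to right, and L-DKO iNKT stands for the libraries labelled so.

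At the DP stage, no V or J segment passed the threshold between L-DKO DP and WT DP cells, where 0.118% of all features rose and 0.0592% fell. By limma, 5 V segments had an unadjusted p under 0.05 upwards and 5 downwards, and the lowest adjusted p over the V segments was 0.0711, for Trav7d-4. It stood at 15.5 and 16.9 FPKM in L-DKO DP, against 7.71 and 6.19 in WT DP (1.12 ± 0.17 SE, adjusted p = 0.0711). The median log2 difference was -0.08 over the V segments and 0.04 over all features. Trav11 was at 4.40 and 4.74 FPKM in L-DKO DP, against 5.41 and 7.18 in WT DP (-0.38 ± 0.43 SE, adjusted p = 0.792), and Trav11d at 6.03 and 3.78, against 13.2 and 9.24 (-1.05 ± 0.73 SE, adjusted p = 0.632). Together they held 0.686 and 0.540% of V FPKM in L-DKO DP, against 1.09 and 0.858% in WT DP. The share was lower in both L-DKO DP libraries. By the labels the L-DKO DP gate left out tetramer-stained cells, while the study's methods give TCRγδ-negative for both groups. What part the gate had in the share was not tested.

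Some V segments separated the DP genotypes without passing the test, and those named here were chosen after their values were seen. Trav7-6 was at 10.5 and 16.4 FPKM in L-DKO DP, against 48.04 and 41.3 in WT DP (-1.68 ± 0.41 SE, adjusted p = 0.213). Trav14-2 was at 34.8 and 39.6 FPKM, against 79.1 and 80.2 in WT DP (-1.08 ± 0.71 SE, adjusted p = 0.614). Trav6n-6 was at 43.05 and 46.1 FPKM in L-DKO DP, against 4.79 and 20.96 in WT DP (2.01 ± 0.66 SE, adjusted p = 0.32). With copies summed the Trav6-6 family differed by 0.80 ± 0.59 (SE, adjusted p = 0.659), less than the copy alone. The libraries of both groups did not overlap for 38 of 73 V segments, 13 of them higher and 25 lower in L-DKO DP. Over all features, both groups' libraries lay apart for 31.3% upwards and 23.9% downwards, so that a separation of this kind was common in the whole table. V use was more even in L-DKO DP, with an effective number of 49.8 and 49.9, against 41.9 and 41.7 in WT DP.

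In γδ cells lacking Id3, a single V family held most of V FPKM. The Trav15-1 family (Trav15d-1-dv6d-1, Trav15n-1 and Trav15-1-dv6-1) held 88.7 and 90.3% of V FPKM in Id3KO γδ, against 17.9 and 19.97% in WT γδ. Trav15d-1-dv6d-1, a V segment of both the α and δ chains at chr14:52863365-52863933, was at 574 and 619 FPKM in Id3KO γδ, against 56.02 and 87.1 in WT γδ (3.08 ± 0.31 SE, adjusted p = 0.0014). Trav15n-1, its n copy at chr14:53174325-53174896, was at 401 and 407 FPKM in Id3KO γδ, against 36.5 and 45.6 in WT γδ (3.28 ± 0.33 SE, adjusted p = 0.0014). The groups did not overlap for either. The unlettered copy Trav15-1-dv6-1 (chr14:53559676-53560247) was at 105 and 20.8 FPKM in Id3KO γδ, against 22.7 and 66.6 in WT γδ, overlapped between groups and did not pass (adjusted p = 0.841). With the 3 copies summed, the family rose by 2.80 ± 0.28 (SE, adjusted p = 0.0013).

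The related Trav15-2 family went the other way. It held 1.99 and 0.368% of V FPKM in Id3KO γδ, against 20.2 and 20.5% in WT γδ. Trav15n-2 was at 1.55 and 1.19 FPKM in Id3KO γδ, against 41.97 and 61.7 in WT γδ (-4.46 ± 0.32 SE, adjusted p = 0.000433). Trav15d-2-dv6d-2, to which it is identical over the coding bases compared, was at 9.32 and 1.19, against 44.5 and 57.3 (-3.44 ± 0.64 SE, adjusted p = 0.0139). Summed, the family fell by 3.83 on the log2 scale (SE 0.65, adjusted p = 0.0101). In the 150 bases printed above, Trav15d-2-dv6d-2 and Trav15-2-dv6-2 each have 29 in capitals, which differ from Trav15d-1-dv6d-1.

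Other V segments of the γδ repertoire fell as well. Trav13-4-dv7, which serves the δ chain too and led both WT γδ libraries, was at 5.68 and 0 FPKM in Id3KO γδ, against 81.1 and 90.3 in WT γδ (-5.07 ± 0.78 SE, adjusted p = 0.00718, and adjusted p = 0.05004 without WT γδ library a). Trav21-dv12, the V segment nearest the J cluster among those measured, was at 1.31 and 1.04 FPKM in Id3KO γδ, against 41.7 and 60.8 in WT γδ (-4.56 ± 0.23 SE, adjusted p = 0.000147). Trav13d-4 was listed at 0 in both Id3KO γδ libraries, against 28.6 and 33.8 FPKM in WT γδ (adjusted p = 0.000147). Trav13d-2 was at 2.84 and 0 FPKM in Id3KO γδ, against 21.3 and 28.5 in WT γδ (-3.71 ± 0.57 SE, adjusted p = 0.0073). In all, 2 V segments rose, against 6.8% of all features, and 25 fell, against 8.35% of all features. With families in place of copies, 1 of 33 rose and 11 fell. The median log2 difference was -1.12 over the V segments and -0.08 over all features. Of the 10 V segments with dv in their symbol, 1 rose and 6 fell, and of the other 63, 1 rose and 19 fell. The rise among the other 63 was Trav15n-1, whose d copy carries dv. Leaving out WT γδ library a left 16 calls, and leaving out library b left 17. Because 28 and 36 V segments were listed at 0 in the Id3KO γδ libraries, the sizes of their falls depend on the pseudocount, as for Trav13-4-dv7 and Trav13d-2, listed at 0 in library b, which differed by -6.82 and -5.51 with a pseudocount of 0.1.

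Markers of other cells also differed between the γδ groups. Cd74, of antigen-presenting cells, was at 6.76 and 14.9 FPKM in Id3KO γδ, against 85.6 and 81.4 in WT γδ. Lyz2, of myeloid cells, was at 2.20 and 5.70 FPKM in Id3KO γδ, against 36.9 and 70.1 in WT γδ, and Cd79b, of B cells, at 2.55 and 2.50, against 9.21 and 9.81. Sorted DP cells had Cd79b too, at 11.6 and 10.4 FPKM in L-DKO DP and 6.02 and 5.64 in WT DP. Itgam, also myeloid, was at 1.77 and 1.49 FPKM in Id3KO γδ and 1.78 and 1.33 in WT γδ. Dntt, which adds bases to the joins of immature thymocytes, was at 10.7 and 4.50 FPKM in Id3KO γδ, against 101 and 112 in WT γδ. Of the DP markers, Ptcra was at 2.96 and 8.55% of the WT DP mean in Id3KO γδ, against 19.02 and 24.4% in WT γδ. Rag1 was at 2.55 and 0.555%, against 7.41 and 9.76%. Cd4, Cd8b1 and Rag2 were likewise lower in both Id3KO γδ libraries than in both WT γδ libraries. Cd8a went the other way in library b, at 7.05 and 29.2% in Id3KO γδ, against 7.12 and 10.5% in WT γδ. Cd74, Lyz2, Cd79b and Dntt were thus lower in both Id3KO γδ libraries than in both WT γδ libraries, and their part in the V levels was not tested.

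**Figure D4:**
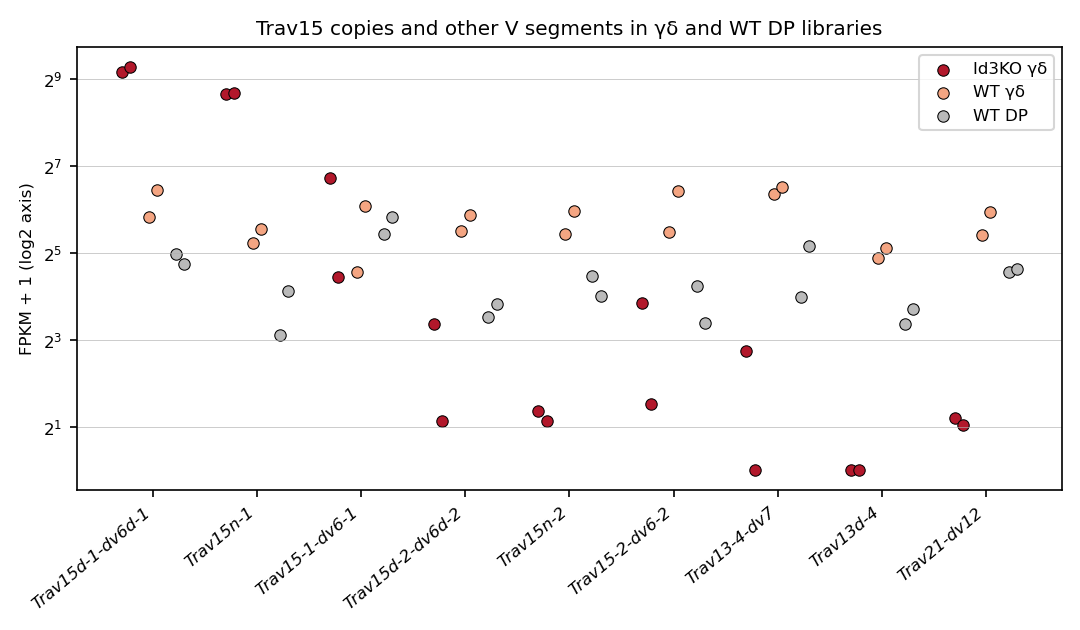
FPKM + 1 (log2 axis) of the Trav15 copies and of 3 other V segments in the Id3KO γδ, WT γδ and WT DP libraries (2 points each). Trav15d-1-dv6d-1 and Trav15n-1 lie above 400 FPKM in both Id3KO γδ libraries and below 88 FPKM in the rest, while the Trav15-2 copies, Trav13-4-dv7, Trav13d-4 and Trav21-dv12 lie lower in Id3KO γδ than in WT γδ.

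Against WT DP cells, δ-shared V segments made up a larger share of V FPKM in WT γδ cells, whose gate selects cells with a δ chain, and most other V segments fell. The 10 δ-shared segments, taken by dv in their symbol, held 47.5 and 48.8% of V FPKM in WT γδ, against 17.04 and 17.1% in WT DP, and 58.5 and 56.7% in Id3KO γδ. Trav15n-1, Trav15n-2 and Trav13d-4 carry no dv and so count among the others, though another copy of each family does. The split thus follows naming and cuts through families. Of 73 V segments 5 rose, against 14.6% of all features, and 46 fell, against 6.03% of all features, with a median of -2.13 over the V segments and 0.11 over all features. Of the 10 δ-shared segments 2 rose and 3 fell, and of the other 63, 3 rose and 43 fell. Those that rose were Trav15n-1, Trav13d-4, Trav15n-2, Trav15d-1-dv6d-1 and Trav21-dv12, by 1.77, 1.46, 1.46, 1.29 and 1.09 on the log2 scale. With every library scaled to 1 total, which put the median of all features at -0.43, only Trav15n-1 of these passed, and summed families gave 1 rise, Trav21-dv12, and 25 falls. Trav14-1 was at 4.41 and 12.5 FPKM in WT γδ, against 99.5 and 123 in WT DP (-3.70 ± 0.57 SE, adjusted p = 0.00404), and Trav7-6 at 1.68 and 4.86, against 48.04 and 41.3 (-3.52 ± 0.41 SE, adjusted p = 0.00133). Trav6d-6, Trav7d-5 and Trav12d-2 fell by 3.26, 3.07 and 3.03. Trav11d was at 0.154 and 3.27 FPKM in WT γδ, against 13.2 and 9.24 in WT DP, and stood at the threshold (adjusted p = 0.0497), a call lost in 7 of the fits without 1 library (0.0656 to 0.262). Without WT γδ library b or without either WT DP library, Trav15d-1-dv6d-1 (adjusted p of 0.0684 to 0.119) and Trav21-dv12 (0.0531 to 0.0707) did not pass, and without WT DP library b or WT γδ library b neither did Trav15n-2 (0.101 and 0.0745). Trav7d-5 was lost without any 1 library of either group (0.0565 to 0.119). The 51 calls became 30 without WT DP library a, 22 without WT DP library b, 23 without WT γδ library a and 23 with a pseudocount of 0.1. In WT γδ, Ptcra was at 19.02 and 24.4% of the WT DP mean, Cd4 at 12.98 and 10.8%, Cd8a at 7.12 and 10.5%, Cd8b1 at 6.96 and 11.4%, Rag1 at 7.41 and 9.76% and Rag2 at 4.52 and 9.12%, and the part of DP cells in these levels was not tested.

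Place along the V cluster was described by cutting the 73 measured segments, in locus order, into 24 farthest from the J cluster, 25 in the middle and 24 nearest it. With the Trav11 pair left out, the segments nearest the J cluster held 12.8 and 4.58% of V FPKM in Id3KO γδ, against 41.7 and 46.4% in WT γδ. They held 34.7 and 30.2% in the L-DKO iNKT-labelled libraries, against 28.2% in WT iNKT, and 37.05 and 38.5% in L-DKO DP, against 43.5 and 43.8% in WT DP. The share of the nearest segments was thus lower in both L-DKO DP than in both WT DP libraries, and that of the middle segments was higher, at 34.2 and 33.1% in L-DKO DP, against 28.4 and 29.9% in WT DP. These shares carry no test and follow the copies that reads cannot always separate. By place, calls in Id3KO γδ against WT γδ were 1 rise and 5 falls among the farthest segments, 1 rise and 7 falls in the middle and 13 calls, all falls, among the nearest, beside 6.8% of all features that rose and 8.35% that fell.

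The 3 measured J segments are spread over the J cluster by number, Traj49 toward its V-proximal end, Traj39 in the middle and Traj2 at the distal end near Trac. At 59, 63 and 66 bases they are barely longer than a read, and their FPKM, divided by so short a length, is unstable. Traj49 was at 2509 and 5389 FPKM in Id3KO γδ, against 28925 and 51241 in WT γδ (-3.39 ± 0.64 SE, adjusted p = 0.0143). In the L-DKO iNKT-labelled libraries it was listed at 0 in both, against 17306 FPKM in WT iNKT (adjusted p = 0.000455). Its level was 9988 and 2617 FPKM in L-DKO DP, against 6404 and 10602 in WT DP (adjusted p = 0.738). Both L-DKO iNKT-labelled libraries were thus listed at 0 for Traj49 where both L-DKO DP libraries had it (adjusted p = 4.45e-05). A listing at 0 can be a failed estimate of FPKM, and a group of such values adds no spread to the test.

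Traj39 was listed at 0 in both Id3KO γδ libraries, against 9245 and 9284 FPKM in WT γδ (adjusted p = 0.0147). It was at 0 and 887 FPKM in the L-DKO iNKT-labelled libraries, against 26991 in WT iNKT (adjusted p = 0.127), and at 9366 and 2300.1 in L-DKO DP, against 8776 and 7260.3 in WT DP (adjusted p = 0.948). The 2 libraries of a group could thus differ from each other as much as the groups did. Both calls between the γδ groups, Traj49 and Traj39, depended on single libraries: Traj49 was lost without Id3KO γδ library a (adjusted p = 0.051), WT γδ library a (0.0561) or WT γδ library b (0.063), and Traj39 without Id3KO γδ library b (0.0587), WT γδ library a (0.0836) or WT γδ library b (0.0562). Leaving out either L-DKO iNKT library made Traj39 pass between the iNKT groups (adjusted p = 0.0227 without a, 0.000891 without b).

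Traj2, the J segment nearest Trac among the 3, was at 1565 and 317 FPKM in the L-DKO iNKT-labelled libraries, against 5357 in WT iNKT (adjusted p = 0.786). It was at 2017 and 1589 FPKM in L-DKO DP, against 9949 and 2520.2 in WT DP (adjusted p = 0.917), and at 0 and 0 in Id3KO γδ, against 0 and 5563 in WT γδ (adjusted p = 0.231). No comparison called it with all libraries in the fit, but it passed in Id3KO γδ against WT γδ without WT γδ library a (adjusted p = 0.00569) and in WT γδ against WT DP without WT γδ library b (0.00292). As a share of the 3 J segments, Traj2 made up 100.0 and 26.3% in the L-DKO iNKT-labelled libraries, against 10.8% in WT iNKT, and 9.44 and 24.4% in L-DKO DP, against 39.6 and 12.4% in WT DP. The DP ranges overlapped. With 3 of the 60 J segments, proximal against distal J use could not be measured beyond these values. Between cell types, Traj49 was higher in WT γδ than in WT DP (2.22 ± 0.64 SE, adjusted p = 0.0445), a call lost without any 1 library of either group (adjusted p of 0.0948 to 0.178) or without either L-DKO iNKT library (0.0606), and the share of Traj2 in WT γδ was 0 and 8.42%, against 39.6 and 12.4% in WT DP.

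**Figure D5:**
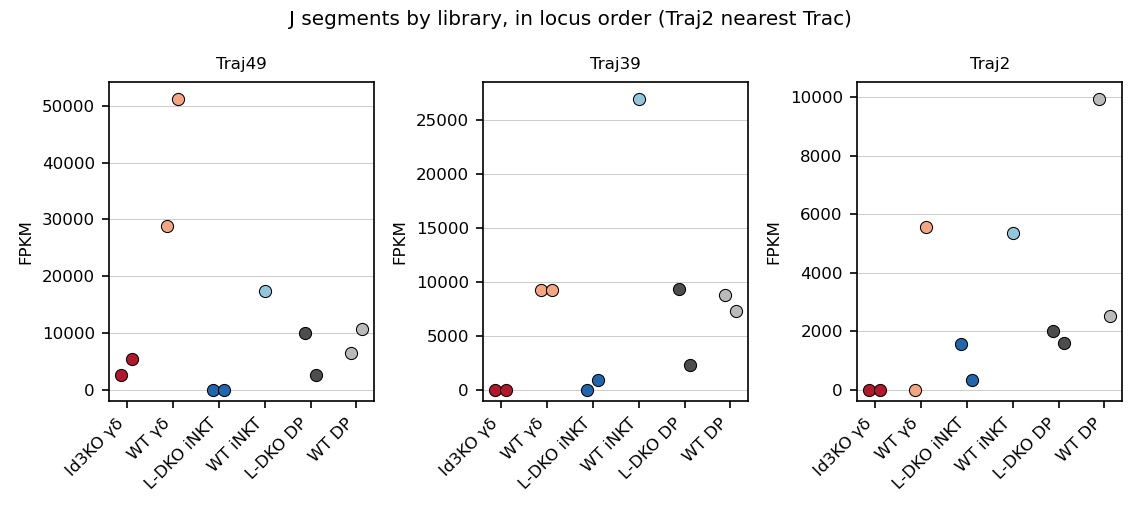
FPKM of the 3 measured J segments in each library (points), with panels in locus order. Traj49 is listed at 0 in both L-DKO iNKT-labelled libraries, Traj39 in both Id3KO γδ libraries and in L-DKO iNKT library a, and Traj2 in both Id3KO γδ libraries and in WT γδ library a.

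Genes that act on the locus or assemble T cell receptors were followed as a list of 20 measured genes. These were the recombinase and joining genes, their regulators in DP cells, and other receptor chains, among them γ chains. Between L-DKO DP and WT DP, 0 of 20 passed the test (all features: 0.118% rose and 0.0592% fell), with 3 higher and 1 lower at an unadjusted p under 0.05 by limma, and their median log2 difference was 0.19. Rag1, the catalytic subunit of the recombinase, was at 1275 and 1346 FPKM in L-DKO DP, against 1114 and 1177 in WT DP. Between the iNKT groups 2 rose and 4 fell, beside 2.18% and 3.88% of all features. Myb, a factor needed in DP cells for iNKT development, was at 130.1 and 159 FPKM in the L-DKO iNKT-labelled libraries, against 25.8 in WT iNKT (2.44 ± 0.23 SE, adjusted p = 0.002). Lig4, the ligase that seals joined segments, was at 15.2 and 15.4, against 3.65 (1.81 ± 0.23 SE, adjusted p = 0.00538). Rag1 was at 4.01 and 3.73, against 47.8 (-3.33 ± 0.67 SE, adjusted p = 0.0286), and the 3 others that fell were the γ chain genes Tcrg-C1, Tcrg-C2 and Tcrg-C4.

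In Id3KO γδ against WT γδ, 9 of the 20 passed, all of them lower, beside 6.8% of all features that rose and 8.35% that fell, and by limma 1 was higher at an unadjusted p under 0.05. Among these were Rag1, at 29.2 and 6.36 FPKM in Id3KO γδ, against 84.9 and 112 in WT γδ (-2.72 ± 0.54 SE, adjusted p = 0.0167), Rag2, the other recombinase subunit (-1.72 ± 0.46 SE, adjusted p = 0.0435), and Lig4 (-2.03 ± 0.18 SE, adjusted p = 0.000978). Cd247, the ζ chain of the CD3 complex, was at 56.2 and 49.8 FPKM in Id3KO γδ, against 213 and 215 in WT γδ (-1.99 ± 0.21 SE, adjusted p = 0.00165). Bcl2l1, Myb, Ptcra, Tcf12 and Trbc2 made up the rest. Against WT DP cells, 5 rose and 9 fell in WT iNKT (16.3% and 8.73% of all features), and 3 rose and 8 fell in WT γδ (14.6% and 6.03% of all features). The 3 rises in WT γδ were Tcrg-C1, Tcrg-C2 and Tcrg-C4, chains of the receptor that the γδ gate selects. Those in WT iNKT were the same 3 genes, Cd3d and Cd3g. In L-DKO iNKT against L-DKO DP, 1 rose and 10 fell (13.4% and 10.8% of all features). Rag1, Rag2, Ptcra, Bcl2l1, Lig4, Myb and Tcf12 fell in each of these 3 comparisons, of which the 2 with WT DP share its libraries.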

How the data were processed

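Sorted thymocytes of 6 groups were profiled by ribosome-depleted, stranded, paired-end RNA sequencing (50-base reads). Cufflinks 2.2.0, TopHat2 2.0.9 and Trimmomatic 0.32 are named in the submitters' processing notes, with the builds GRCm38 and mm10. Not given in the sources used here are annotation and strand setting. The values the authors deposited are on a log2 scale (0 to 16.65) and were read as log2(FPKM + 1), since they start at 0 and the file header calls them FPKM. Since FPKM divides by segment length and library total, a value of a short segment is imprecise, and a level depends on what else fills the library. Depth is unknown, and no count interval is given. The authors' columns of means and of mutant to WT ratios were not used. Of 12 labelled samples 11 had a column, since 1 WT iNKT library was left out by the authors.

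All 11815 features entered 1 limma 3.58.1 model (R 4.3.3) of 6 group means, with 5 residual and 2.87 prior degrees of freedom, no trend, two-sided tests and Benjamini-Hochberg adjustment over all features at 0.05. The method was tested on simulated data. Named segments were Trac and the Trav11 copies, the 5 V and 5 J segments with the largest rise and fall past the threshold (at least 10 FPKM in the higher group, no overlap of libraries), the highest V and J segment of each library, and members of the receptor assembly list that passed. Members and lists were chosen with earlier results of these data known. Alternatives were a pseudocount of 0.1, a filter on low values, 2 other scalings, fits on 2 groups, leaving out each library and, added after seeing the data, summed families. Traj18 and Trav11n are not analysed here, and 1 gene of the receptor assembly list is not reported here. Python 3.11.15 and pandas 2.3.3 were used for summaries.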

Additional observations from a re-analysis of the deposited data

Results flagged for a closer look

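The contrast of Id3KO γδ with WT γδ was set against that of the L-DKO iNKT-labelled libraries with WT iNKT by an interaction contrast of the same limma fit, as the difference of the 2 log2 differences. These contrasts compare genotype labels, and Id3 itself was still at 30.5 and 22.8 FPKM in the L-DKO iNKT-labelled libraries, against 42.4 in WT iNKT, but at 6.16 and 3.09 in L-DKO DP, against 53.8 and 36.9 in WT DP. How complete the deletion was, was not tested. The contrasts differed for Trav21-dv12 by -3.72 (adjusted p = 0.00332), for Trav13-2 by -3.34 (0.0341), for Trav15n-2 by -2.11 (0.0496) and for Trav6-5 by -3.41 (0.0305). They also differed for Trav13d-4 (0.00355) and Trav9-4 (0.0223), which are listed at 0 in both Id3KO γδ libraries, and for Traj49 (0.00282), listed at 0 in both L-DKO iNKT-labelled libraries. With family copies summed, the families of Trav13-2 (adjusted p = 0.522), Trav15n-2 (0.646), Trav6-5 (0.195), Trav13d-4 (0.0632) and Trav9-4 (0.604) did not pass. With a pseudocount of 0.1, Trav13-2 (0.108), Trav15n-2 (0.775) and Trav6-5 (0.141) did not pass either. The Trav13-2, Trav15n-2 and Trav6-5 values were lost in 7, 9 and 7 of the fits that left out 1 library, and Trav9-4 without WT γδ library a. The contrast of L-DKO with WT labels differed between iNKT and DP cells for Trav7d-4 (adjusted p = 0.00921) and Traj49 (0.00834). Trav7d-4 was at 1.52 and 1.37 FPKM in the L-DKO iNKT-labelled libraries, against 5.83 in WT iNKT, and at 15.5 and 16.9 in L-DKO DP, against 7.71 and 6.19 in WT DP. Its call was lost without either L-DKO DP library (0.0532 and 0.0591).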

How the results depend on the processing

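No paired analysis was possible because the columns carry no replicate numbers. The filter (at least 1 FPKM in 2 libraries) kept all 11815 features and changed nothing, and neither leaving out Traj18 nor leaving out the WT iNKT library from its own comparisons could be run. A pseudocount of 0.1 left 3 V calls for L-DKO iNKT against WT iNKT, 15 for WT iNKT against WT DP and 23 V and 0 J calls for WT γδ against WT DP. Scaling to 1 total put the all-feature medians between -0.73 and 0.80 and gave 17 V and 2 J calls for L-DKO iNKT against WT iNKT, 57 V calls for WT iNKT against WT DP and 0 J calls for WT γδ against WT DP. It turned 3 directions, all short of the threshold: Trac in L-DKO iNKT against WT iNKT (0.29), Traj2 in WT iNKT against WT DP (adjusted p = 0.8554) and Traj39 in WT γδ against WT DP (0.917). Scaling without receptor segments, small RNA and predicted genes put those medians between -0.28 and 0.07, turned Traj2 in WT iNKT against WT DP (0.9753) and gave 0 J calls for WT γδ against WT DP. In each of these 3 fits with 0 J calls, limma had 1 J segment higher at an unadjusted p under 0.05, and 1 lower under scaling to 1 total. A fit on the 2 groups alone gave 0 V calls for L-DKO iNKT against WT iNKT (8 higher and 25 lower at an unadjusted p under 0.05 by limma) and 1 J call for WT iNKT against WT DP.

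Without the highest J segment of each library, the share of Traj2 became 23.64% in WT iNKT, 29.29% in L-DKO DP and 18.73% in WT γδ, since fewer segments entered the sum. Leaving out 1 library at a time gave 6 to 19 V and 1 to 2 J calls for L-DKO iNKT against WT iNKT, 16 to 31 V and 0 to 2 J calls for Id3KO γδ against WT γδ, 18 to 37 V calls for WT iNKT against WT DP, 1 to 2 J calls for L-DKO iNKT against L-DKO DP, and 22 to 54 V and 0 to 1 J calls for WT γδ against WT DP. It turned directions short of the threshold for Trav11 (-1.099 to 0.3767) and Trav11d (-1.15 to 0.8109) in Id3KO γδ against WT γδ, and for Traj39 (adjusted p of 0.6247 to 1) and Traj49 (0.6955 to 0.9986) in L-DKO DP against WT DP. It also turned Traj2 in WT iNKT against WT DP (0.9028 to 0.9915) and in WT γδ against WT DP (0.002925 to 0.9494). Summing family copies, added after seeing the data, took 12 of 49 named results out of significance, a pseudocount of 0.1 took 13 of 75 and scaling to 1 total 7 of 75. These totals include results that had not passed to begin with, such as those of L-DKO DP against WT DP, so the share of calls lost was larger. Beyond the number of libraries or segments entering a fit, the cause was not tested. Depth is unknown, so what it limits could not be given.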

Other observations

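The letters of the V copies were not used in any comparison. The 19 n copies held 36.2 and 37.8% of V FPKM in Id3KO γδ and 22.0 and 21.1% in WT γδ, and 27.1 and 26.1% in L-DKO DP and 22.6 and 25.0% in WT DP. In iNKT cells, whose Trav11n is not analysed here, they held 17.04 and 12.1% in the L-DKO iNKT-labelled libraries and 7.02% in WT iNKT. The WT iNKT library had γ chain constant region RNA at 125 to 217 FPKM, against at most 18.5 FPKM in the L-DKO iNKT-labelled libraries. No explanation of either was tested.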
